A study of Homo sapiens with 4 samples.

Results

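The baseline transcriptome of Hs746T cells was read from the control arrays of a study of MET inhibition and knockdown. Hs746T is an established gastric carcinoma cell line with an exon-skipping mutation and an amplification of MET, the receptor for hepatocyte growth factor. The series holds 4 single-colour Agilent human expression arrays, 1 per condition and all on 1 slide, and the 2 arrays described here are those labelled DMSO and sc siRNA. The cells of the DMSO array received the solvent of the MET inhibitor, for a time that the sources do not name for the array. The cells of the sc siRNA array were transfected with a scrambled siRNA by a lipid reagent and harvested after 48 h. Both grew in DMEM with fetal bovine serum, and both carried the altered MET gene, so neither array shows these cells without it. On these 2 of 4 arrays the members ranked are the 33654 of 34127 non-control probes that had a spot without an outlier mark on both. Each probe was ranked by its mean log2 processed signal over both arrays, after the 75th percentile of each array had been subtracted.

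The arrays are different conditions and not replicates, so no contrast between them was tested and no error between cultures could be had. Instead both readings are given for each gene, always as the linear processed signal with DMSO first and sc siRNA next. The brightness percentile gives the share of probes that were dimmer. It orders probes, whose signal also depends on their sequence, and not the numbers of transcripts of different genes. A culture also gives no view of single cells, so a few cells with much of a transcript and many cells with little of it cannot be told apart. A probe is called present where the scanner software marked it well above background on both arrays, and absent where it did so on neither. Absent means that only a bound is known, near the lowest signals marked well above background, which were 10.8 with DMSO and 10.2 with sc siRNA.

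An epithelial cell is held to its neighbours by E-cadherin and claudins, is filled with keratin filaments and is kept in that state by factors such as GRHL2 and ESRP1. A mesenchymal cell has vimentin and N-cadherin in their place, under ZEB and SNAIL factors. Carcinoma cells can hold genes of both programmes. Receptor tyrosine kinases such as MET pass growth signals through adaptors to the RAS and PI3K cascades, and the genes that these cascades switch on include DUSP and SPRY feedback inhibitors.

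Of the 33654 probes, 22272 (66.2%) were present, 9958 (29.6%) were absent and 1424 (4.23%) were marked on 1 array alone. A gene symbol could be given to 25411 probes, for 19523 genes. Of these genes, 14200 (72.7%) were present by at least 1 probe, 4628 (23.7%) were absent by every probe, and 695 (3.56%) were seen on 1 array alone. In the following, a gene takes its brightest probe and is called bright where that probe lies in the highest 10% of probes, which held for 2721 genes (13.9%). The median percentile of all named genes was 60.6. The readings of both arrays lay close together in rank, with a median gap of 0.343 percentile points for bright probes and of 1.38 points for present probes that were not bright. Repeated spots of 1 probe on an array had a median SD of 0.0686 log2 units with DMSO and 0.0606 with sc siRNA, an error that leaves out the difference between cultures.

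**Figure D1:**
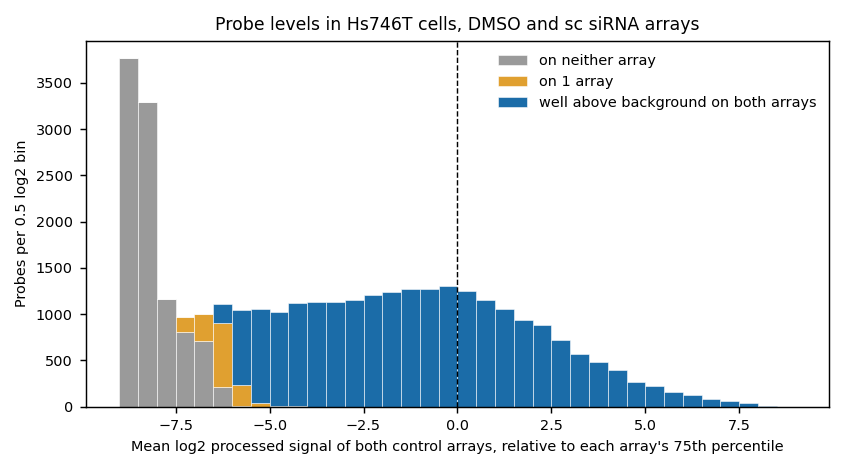
Number of probes (vertical axis) per 0.5 log2 bin of mean processed signal over the DMSO and sc siRNA arrays, relative to the 75th percentile of each array (dashed line). Bars are stacked by the background mark: the 9958 absent probes (grey) pile up at the lowest levels, the 1424 probes marked on 1 array (orange) lie between, and the 22272 present probes (blue) spread over the rest.

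The brightest named genes included many that most cells express. Outlier marks had removed 26.0% of the highest 1% of probes, so the order given here holds for the probes kept. Among these, ACTB, which encodes beta-actin, led with signals of 324892 and 287490, and its other probe read 9414 and 10736. The ribosomal protein genes RPL23A, RPL19, RPS28, RPS29, RPLP0, RPL35 and RPS25 were among the 20 brightest, as were the elongation factor gene EEF1A1, the ferritin gene FTH1, the ATP synthase gene ATP5F1E, NME2 and BRI3. MIF, LGALS1 and CAV1 were also among the 20 brightest. MIF, a cytokine made by many tumour cells, read 312811 and 268407. LGALS1, a galectin gene of the fibroblast and matrix list, read 278960 and 210996. CAV1, the coat protein of caveolae, read 247731 and 200278. MET was next after the 20 brightest genes, with 221451 and 190010.

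In 2 of the 20 brightest genes the bright signal came from 1 probe that its other probes did not share. FUT6, a fucosyltransferase gene, read 282346 and 264076 on one probe, while the other read 2.27 and 4.12 and was absent. GPR155, an orphan receptor gene, read 270013 and 272867 on one probe, while the others read 217.5 and 135.4, and 198.2 and 113.3. For these genes the arrays do not settle the level of the transcript. Over all 4886 genes with several usable probes, every probe was present in 67.7%, every probe was absent in 11.9%, and the probes fell into different classes or were seen on 1 array in 20.3%. Of the 908 bright genes with several usable probes, 866 had every probe present and 36 had an absent one.

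Reference genes and ribosomal protein genes lay near the top of the range. All 18 reference genes were present and 17 were bright, among them GAPDH, a glycolytic enzyme gene, with 205490 and 165101. The exception was TBP, the TATA-binding protein gene, with 1234 and 933.9. All 25 measured ribosomal protein genes were present and 24 were bright, and RPL27A, with 209.4 and 114.6, was the exception. Ribosomal protein genes have many near-identical pseudogene copies, which their probes may share.

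Genes of the mesenchymal state were read at high rank as a list. Those of epithelial junctions were not, although some of them were bright. Of the 17 measured genes of the mesenchymal state, 15 (88.2%, against 72.7% of all named genes) were present, and the median percentile of the list was 80.5. All 15 lay above the median probe, as did 11619 of the 14200 present genes in all. TGFBI, a matrix protein gene, read 61601 and 68828, and CD44, the hyaluronan receptor, 27558 and 29543. The collagen crosslinking enzyme LOX read 21625 and 21928. All 3 were bright on both arrays, as was the homeobox gene PRRX1 with 8208 and 4554.

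The defining factors of the mesenchymal list were read as well. CDH2, which encodes N-cadherin, read 4099 and 3552, and its other probe 2096 and 2017. ZEB1, a repressor of epithelial genes, read 2790 and 2247. SNAI2, a zinc finger factor of the SNAIL family, read 2444 and 2015. These 3 genes lay between the 84.1 and 88.5 percentiles. Fibronectin (FN1) was lower in rank, with 1061 and 770.3, and TWIST1 read 113.3 and 65.4. The absent members were FOXC2, with 2.16 and 2.07, and GREM1, with 3.41 and 2.85. VIM, the vimentin gene and the list's defining filament, could not be counted, because its only probe carried a background outlier mark on the sc siRNA array. Its readings were 291840 and 248274, which would rank it 17th of 19740 genes with outlier marks ignored.

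Of 25 genes of epithelial junctions and their regulators, 17 (68.0%, against 72.7% of all named genes) were present and 7 (28.0%, against 23.7%) absent. Bright members numbered 2 (8.0%, against 13.9%), and the median percentile was 51.4, against 60.6 of all named genes. CLDN4, a tight junction claudin, read 91380 and 73845, and PKP3, a desmosomal plakophilin, 13014 and 9588. EPCAM, the epithelial adhesion molecule, read 2161 and 1958. These stood with the brighter probes. CDH1, which encodes E-cadherin, was dim, with 33 and 13.1, and lay at the 37.1 percentile. The splicing regulator ESRP1 read 34.3 and 30.5, and JUP, the gene of plakoglobin, read 38 and 23.6. The absent members included the transcription factors GRHL2, with 6.01 and 5.31, OVOL1, with 2.33 and 2.11, OVOL2, with 2.4 and 2.13, ELF3, with 2.46 and 2.17, and EHF, with 5.63 and 2.27. The claudin CLDN3 and the GTPase gene RAB25 were absent as well. The list was thus split, with junction genes among its bright members and 5 transcription factors among its 7 absent ones.

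Of 17 keratins, 9 (52.9%, against 72.7% of all named genes) were present and 8 (47.1%, against 23.7%) were absent. Bright keratins numbered 4 (23.5%, against 13.9%). KRT18, the type I keratin of simple epithelia, read 33631 and 26490, and its other probe 6023 and 4742. Its partner KRT8 read 3959 and 3868 on one probe and 51.6 and 56.3 on the other. KRT10 read 15511 and 11312, KRT7 7487 and 5673, and KRT15, a keratin of basal cells, 6610 and 5765. KRT19 was lower in rank, with 823.5 and 613.2. Absent were KRT5 and KRT14, also keratins of basal cells, the stress keratins KRT6A, KRT16 and KRT17, the intestinal keratin KRT20, and KRT1 and KRT23.

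Of 24 measured stomach mucosa genes, 11 (45.8%, against 72.7% of all named genes) were present, 10 (41.7%, against 23.7%) were absent and none was bright. With the weaker mark for a positive and significant signal, 17 were present, against 81.6% of all named genes. By the stricter mark, 8 of the 11 present ones lay below the median probe, against 18.2% of present genes in all. The brightest were 2 transcription factor genes of the foregut, SOX2, with 1468 and 1059, and GATA6, with 787.9 and 640.1. The gland mucin MUC6 followed with 163.1 and 145.1 on one probe, while its other probe was absent. TFF1, a trefoil peptide of surface mucous cells, read 87.6 and 75.3. PGC, a pepsinogen gene, read 22.2 and 18.2 on one probe and was absent on the other. These products of differentiated stomach cells thus lay near or below the median probe. Absent were both subunits of the acid pump, ATP4A with 3 and 5.47 and ATP4B with 2.66 and 2.3, the pepsinogen PGA3, intrinsic factor (CBLIF), somatostatin (SST), and the gastrokines GKN1, with 3.99 and 7.76, and GKN2, with 2.53 and 5.55. CLDN18, the gastric claudin, carried an outlier mark with DMSO and read 2.22 and 3.28. MUC5AC, the mucin of surface mucous cells, had no probe of that name.

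The window around the start of GKN1 is shown as an example of a stomach gene that was absent on both arrays. It spans 250 bases before to 50 bases after the start in RefSeq (GRCh38.p14), on the plus strand, and CG dinucleotides, the sites of DNA methylation in human cells, are in capitals. The window holds 1 of them.
GKN1, chr2:68974386-68974685: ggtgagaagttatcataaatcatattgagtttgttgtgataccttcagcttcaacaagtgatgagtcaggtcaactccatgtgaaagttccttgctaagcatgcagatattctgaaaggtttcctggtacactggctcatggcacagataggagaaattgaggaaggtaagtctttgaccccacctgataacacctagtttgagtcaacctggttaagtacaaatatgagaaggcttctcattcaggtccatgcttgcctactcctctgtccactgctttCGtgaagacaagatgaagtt

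Of 20 intestinal genes, 6 (30%, against 72.7% of all named genes) were present and 11 (55.0%, against 23.7%) absent, among them the intestinal regulator CDX2, with 3.17 and 2.62, villin (VIL1), with 3.48 and 2.83, and the cadherin CDH17, with 3.11 and 2.58. CDX1, another caudal factor, read 441.4 and 358.9 on one probe and was absent on the other. MUC2, the goblet cell mucin, had 2 probes present, the brighter with 384.5 and 295.1, and 2 absent. In both genes the probes fell into different classes, so their levels are uncertain.

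Of 17 measured fibroblast and matrix genes, 11 (64.7%, against 72.7% of all named genes) were present and 5 (29.4%, against 23.7%) absent. Beside LGALS1, the collagen VI gene COL6A1 was bright with 11772 and 10576. THY1 followed with 3855 and 2496, the collagen I gene COL1A2 read 1216 and 1095, and COL1A1 read 771.3 and 696.5. COL3A1, which goes with COL1A1 in fibroblasts, was absent with 2.36 and 2.14, as were COL6A3, LUM, POSTN and PDPN. Of 14 measured contractile genes, 11 (78.6%) were present. The calponin CNN3 led with 9642 and 5982, and ACTA2, the smooth muscle actin gene, read 489.6 and 414.8. The smooth muscle coactivator MYOCD and the actin ACTG2 were absent. Of 20 skeletal muscle genes, 9 (45.0%) were present, and 14 were with the weaker mark. By the stricter mark, 6 of the 9 lay below the median probe, against 18.2% of present genes in all. TNNT1, the troponin T of slow muscle, was the exception and read 42319 and 25901. MYOD1, MYF5 and MYF6, which set the muscle lineage, and the creatine kinase CKM were absent, and desmin (DES) read 310.6 and 287.5. MYOG and PAX7 were present but dim, with 31.3 and 28.3, and 53.9 and 37.6 on the brighter of 2 PAX7 probes.

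Of 12 endothelial genes, 7 (58.3%, against 72.7% of all named genes) were present and none was bright. The adhesion molecule PECAM1 read 1846 and 1039, 962.3 and 491.7, and 182.5 and 114.1 on its 3 probes. CDH5, the cadherin of endothelium, read 88.5 and 65.5, and CLDN5 and KDR were absent. Of 19 measured blood cell genes, 11 (57.9%) were present and 8 (42.1%, against 23.7% of all named genes) absent. CD68, a lysosomal protein known from macrophages, read 7551 and 11833, and CD4, a T cell coreceptor, 7162 and 5526, both bright on both arrays. CD79A, a part of the B cell receptor, read 1724 and 1557. The B cell gene MS4A1, the T cell gene CD3E and the globin HBB were absent. PTPRC, the pan-leukocyte antigen, read 37.8 and 22.7 on its brightest probe of 4, and 2 of the others were absent. The presence of other cells in the cultures was not tested.

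Of 16 nerve and neuroendocrine genes, 3 (18.8%, against 72.7% of all named genes) were present, or 5 with the weaker mark or on the DMSO array alone. The 11 absent genes (68.8%) included CHGA, with 2.45 and 2.15, INSM1, NEUROD1, NCAM1 on all 3 probes, and SOX10. The enolase ENO2 was the brightest, with 3366 and 3270. Of 14 hepatocyte genes, 4 (28.6%) were present, or 8 with the weaker mark. The 10 absent genes (71.4%, against 23.7% of all named genes) included albumin (ALB) with 7.82 and 9.92. Of 6 melanocyte genes, 4 (66.7%) were present, led by MITF with 560.3 and 340.9, and TYR was absent on all 3 probes. Of these 4, 3 lay below the median probe. Of 23 measured cancer-testis and germline genes, 11 (47.8%, against 72.7% of all named genes) were present and 11 (47.8%, against 23.7%) absent. Of the 11 present ones, 8 lay below the median probe, against 18.2% of present genes in all. Where every probe of a gene had to be present, 7 were. Only IGF2BP3, an RNA-binding protein gene of the fetus, was bright, with 19426 and 20184, and PRAME, with 2.62 and 2.22, and MAGEA4, with 2.31 and 2.09, were absent. In the pluripotency list SOX2 and UTF1, with 1344 and 1053, were present, while NANOG, LIN28A and LIN28B were absent.

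**Figure D2:**
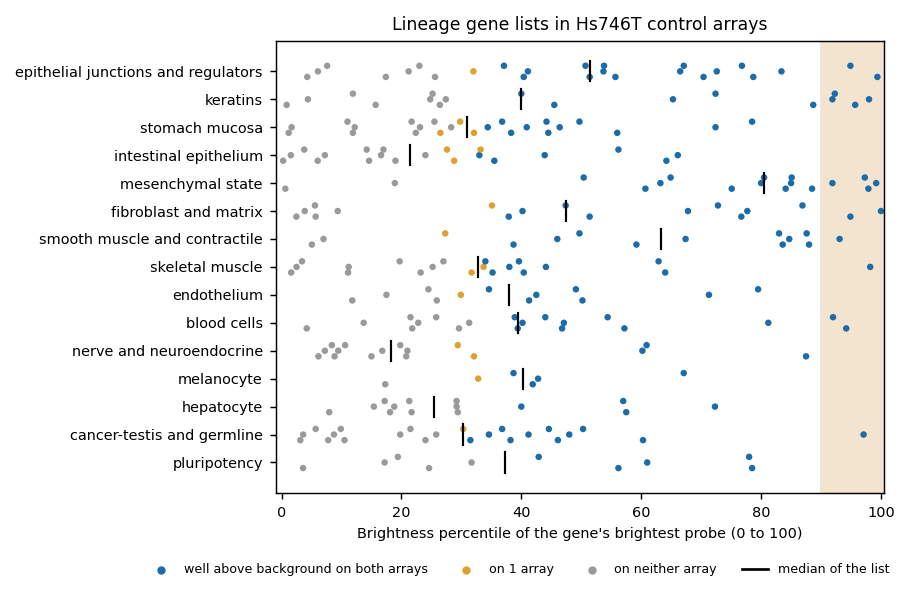
Brightness percentile of the brightest probe (horizontal axis) of each measured member of the lineage lists, coloured by the background mark on the DMSO and sc siRNA arrays, with a black tick at the list's median and the highest 10% of probes shaded. Mesenchymal genes have the highest median, 80.5, and nerve and neuroendocrine genes the lowest, 18.3. No stomach or intestinal gene lies in the shaded range, and none of the endothelial, nerve, melanocyte, hepatocyte or pluripotency lists does.

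Receptor tyrosine kinases were broadly present at low rank, with MET far above the rest. Of 58 genes, 41 (70.7%, against 72.7% of all named genes) were present, 14 (24.1%) were absent and 3 (5.17%, against 13.9%) were bright, with a median percentile of 46.4. MET lay at the 99.9 percentile with 221451 and 190010. The single MET probe does not show which splice form was made. AXL, a receptor of the TAM group, read 16472 and 13572. RYK, a Wnt-binding receptor with a kinase-dead domain, read 6239 and 4627.

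Below these 3 came FGFR1, a fibroblast growth factor receptor, with 3501 and 2637, ROR1, with 3166 and 2099, and the ephrin receptor EPHB4, with 2287 and 1493. Of the ERBB family, ERBB2 read 1691 and 1299 and EGFR 1147 and 994.3. ERBB3 and ERBB4 were dim, with 107.5 and 90.8, and 46 and 49.6. By its brightest probes, the ERBB family spread from the 80.3 percentile of ERBB2 to the 44.6 percentile of ERBB4. MST1R, the closest relative of MET, read 150 and 144.8. IGF1R, a growth factor receptor that many tumour lines use, was dim with 31.8 and 28.3.

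The absent receptors included FLT1, KDR and FLT4, the VEGF receptors, PDGFRA, FLT3, FGFR3, INSRR, EPHA1, EPHA6, EPHA8, EPHB1, EPHB6 and AATK. KDR read 3.22 and 2.68, and PDGFRA read 2.42 and 2.15. FGFR2, PTK7 and TIE1 were seen on 1 array alone. The order of the receptors rests on both arrays together, and some dim ones, such as NTRK3 with 274.8 and 93.7, would move in it if either array were read alone.

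**Figure D3:**
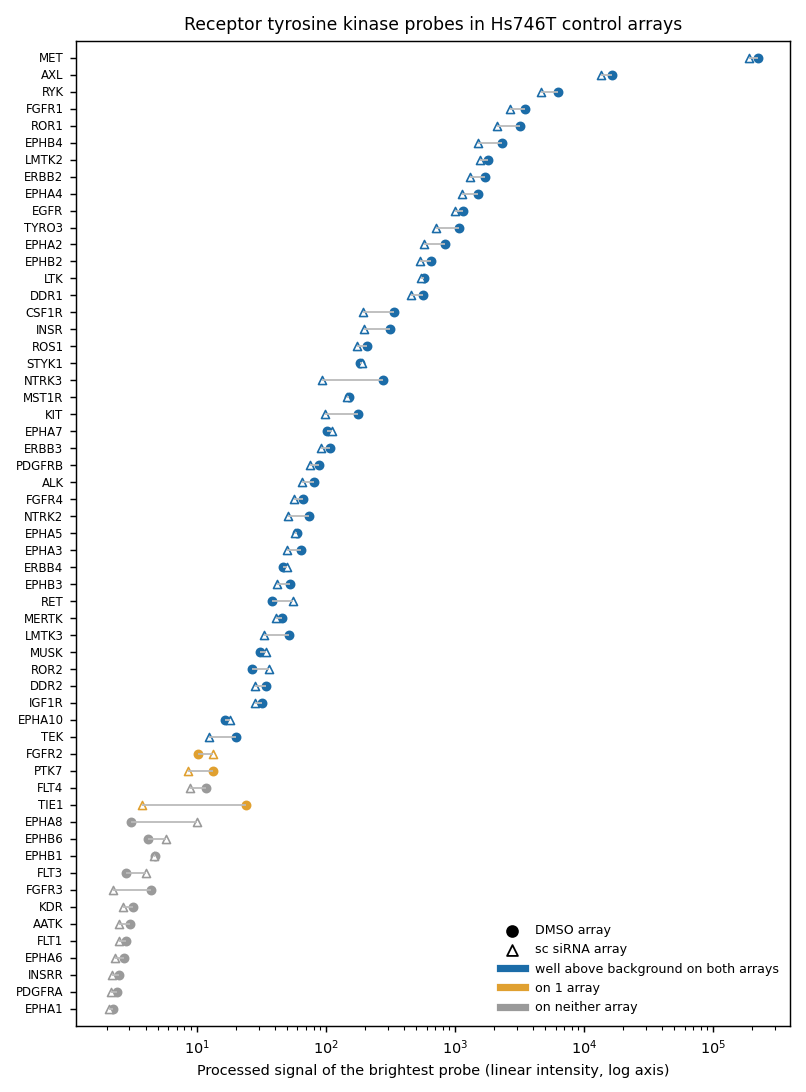
Processed signal (horizontal log axis) of the brightest probe of receptor tyrosine kinase genes on the DMSO array (filled circles) and the sc siRNA array (open triangles), sorted by percentile and coloured by the background mark, 1 gene of the list not being shown. MET, at 221451 and 190010, stands above AXL, at 16472 and 13572, and the absent receptors (grey) lie lowest.

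Windows around the starts of MET, RYK and KDR are shown as those of 2 bright receptors and 1 absent one, with the span of bases and the capitals as for GKN1. They were taken from RefSeq (GRCh38.p14), MET on the plus strand, RYK and KDR on the minus strand.
MET, chr7:116671946-116672245: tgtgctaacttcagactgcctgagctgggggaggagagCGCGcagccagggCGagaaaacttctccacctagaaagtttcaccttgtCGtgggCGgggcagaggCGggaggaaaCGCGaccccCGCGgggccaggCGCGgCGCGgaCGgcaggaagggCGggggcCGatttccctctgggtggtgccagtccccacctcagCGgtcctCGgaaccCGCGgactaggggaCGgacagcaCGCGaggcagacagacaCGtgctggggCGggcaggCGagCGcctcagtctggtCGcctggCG
RYK, chr3:134250810-134251109: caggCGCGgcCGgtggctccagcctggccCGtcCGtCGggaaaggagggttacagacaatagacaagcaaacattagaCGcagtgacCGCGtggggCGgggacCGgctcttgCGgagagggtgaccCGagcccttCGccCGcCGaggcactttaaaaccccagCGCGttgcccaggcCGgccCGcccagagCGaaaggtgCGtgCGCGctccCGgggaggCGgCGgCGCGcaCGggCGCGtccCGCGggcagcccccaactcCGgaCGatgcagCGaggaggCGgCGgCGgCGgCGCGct
KDR, chr4:55125546-55125845: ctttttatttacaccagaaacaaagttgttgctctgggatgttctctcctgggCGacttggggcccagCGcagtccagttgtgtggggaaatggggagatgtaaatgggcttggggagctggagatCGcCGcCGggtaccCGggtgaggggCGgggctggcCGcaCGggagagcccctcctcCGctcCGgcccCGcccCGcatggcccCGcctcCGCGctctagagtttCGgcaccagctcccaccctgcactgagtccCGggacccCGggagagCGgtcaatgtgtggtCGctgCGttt
The windows hold 30, 43 and 22 CG dinucleotides. The CpG ratio, the number of CG divided by the number that the C and G content would give, was 0.85 for MET, 1.08 for RYK and 0.696 for KDR, and that of the GKN1 window was 0.0746. CG reads the same on both strands. Over all 35116 windows of the table the median ratio was 0.579, and 48.8% lay over 0.6. Of the 58 receptors, 51 (87.9%) had a window. The median ratio of the 37 present receptors was 0.703 (range 0.188 to 1.19, 23 over 0.6), and that of the 11 absent ones 0.743 (range 0.156 to 1.01, 8 over 0.6). Only 11 of the 14 absent receptors had a window, below the minimum of 80%. The comparison of present with absent receptors was therefore void, and no test was run on it. Over all named genes the same check was void, since windows were given for 73.0% of the absent and 79.3% of the present genes, below the minimum of 80%.

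MET and its neighbours on chromosome 7 were read side by side, a set chosen after its values were seen. CAV1 and CAV2, which lie next to MET on one side and encode the caveolins, read 247731 and 200278, and 28668 and 21588. CAPZA2, a subunit of the actin capping protein on the other side, read 29387 and 24875. These 4 genes in a row were bright. Farther out, TES, a focal adhesion gene, read 639.3 and 522, and ST7 read 4860 and 4310. Beyond ST7, WNT2, ASZ1, CFTR and CTTNBP2 lay between the 37.0 and 48.3 percentiles, and CFTR, the chloride channel gene, read 63.3 and 77.4. LSM8, an RNA-binding protein gene after these, was bright again with 5469 and 4154, and ANKRD7 and PPP1R3A were absent. Copy number was not measured on these arrays, and its part in the levels was not tested.

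**Figure D4:**
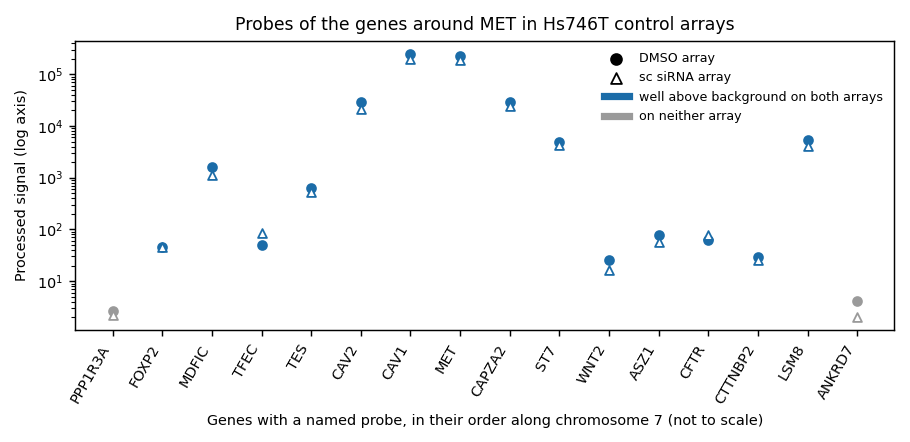
Processed signal (vertical log axis) of the brightest probe of MET and of the genes around it with a named probe, in their order along chromosome 7 (not to scale), on the DMSO array (filled circles) and the sc siRNA array (open triangles). CAV2, CAV1, MET and CAPZA2 form a run of bright probes, and PPP1R3A and ANKRD7 were absent.

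Of 43 growth factor ligands, 31 (72.1%, against 72.7% of all named genes) were present, 10 (23.3%) absent and 3 (6.98%, against 13.9%) bright. The bright ones were the VEGF family members VEGFB, with 24353 and 23053, and VEGFC, with 7568 and 9139, and PROS1, a ligand of TAM receptors, with 5526 and 5071. VEGFA, the main angiogenic factor, read 3779 and 3483. The VEGF receptor tyrosine kinases FLT1, KDR and FLT4 were absent, as given above. HGF, the ligand of MET, was not seen on both arrays. Its brighter probe read 17.6 and 3.38 and was marked with DMSO alone, and the other read 2.62 and 2.73. MST1, the ligand of MST1R, read 1010 and 829.7. GAS6, the ligand of AXL, read 26.7 and 20.1, and NRG1, which binds ERBB3 and ERBB4, 2453 and 1876.

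Of the 44 proteins of MET signalling, 41 (93.2%, against 72.7% of all named genes) were present and 3 (6.82%, against 13.9%) bright. Of the present ones, 40 lay above the median probe and 1 (2.44%, against 18.2% of present genes in all) below it. The median percentile was 72.6, against 60.6 of all named genes. PIK3R2, a regulatory subunit of PI3K, read 30728 and 22167, and the phosphatase PTPN1 5126 and 4183. The kinase MAP2K1 read 4866 and 3971, and the phosphatase PTPN11 4888 and 3596. The adaptor GRB2 read 1617 and 1320, and GAB1, the docking protein of MET, 112.8 and 102. CBL, the ligase that marks MET for degradation, read 2194 and 1751. Absent were the semaphorin receptor PLXNB1, with 2.85 and 3.58, the protease hepsin (HPN), which activates HGF, and its inhibitor SPINT1.

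Of the 24 genes of MAPK output, 23 (95.8%, against 72.7% of all named genes) were present. All 23 lay above the median probe, as did 11619 of the 14200 present genes in all. Bright ones numbered 7 (29.2%, against 13.9%). The phosphatase genes DUSP5, with 19701 and 17198, and DUSP6, with 8950 and 7699, are feedback inhibitors of ERK. MYC read 12128 and 11336, the AP-1 genes FOSL1 8349 and 6712 and JUN 9262 and 4700, and the feedback inhibitor SPRY2 8663 and 6792. EGR3 was absent, with 2.14 and 2.05. The list was chosen as a readout of ERK activity, which these arrays did not measure.

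Of 46 cytokine receptors, 36 (78.3%, against 72.7% of all named genes) were present and 5 (10.9%, against 13.9%) bright, among them IL4R, the receptor of interleukin 4, with 12679 and 12723. LEPR, the leptin receptor gene, read 70846 and 71047 on 1 of 4 probes. Its other probes read 134.1 and 118.1, 45.1 and 46.4, and 5.04 and 4.33, so its level is uncertain. Of 29 TNF receptors, 24 (82.8%, against 72.7%) were present. TNFRSF12A, the receptor of TWEAK, was the brightest, with 88657 and 82521, and the death receptors FAS and TNFRSF10B read 1802 and 1276, and 2860 and 2646.

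Of 22 chemokine receptors, 9 (40.9%, against 72.7% of all named genes) were present and 13 (59.1%, against 23.7%) absent. CXCR4, with 2.64 and 2.27, and CCR7 were among those absent. The brightest chemokine receptor was CCR10, with 1651 and 1536. CCR1 read 670.5 and 2080, one of the receptors whose readings lay farther apart. Of 53 other G protein-coupled receptors, 36 (67.9%) were present. They were led by the adenosine receptor ADORA2B with 20294 and 18373 and the adhesion receptor ADGRE5 with 16457 and 15593. The gastrin receptor CCKBR and the muscarinic receptor CHRM3, which parietal cells use, were absent.

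Of 48 nuclear receptors, 33 (68.8%, against 72.7% of all named genes) were present. NR2F6 read 38894 and 33854, and NR3C1, the glucocorticoid receptor, 24115 and 12919. The oestrogen receptor ESR1 was dim, with 90.3 and 84.9 on its brightest probe, and was absent on another with 5.28 and 4.97. The intestinal and hepatic receptors HNF4A, NR1H4 and NR1I2 were absent. Of 25 measured integrins, 17 (68.0%) were present. The laminin-binding ITGA6 was bright, with 7685 and 5274, ITGB1, the common beta chain, read 2153 and 1841, and ITGB6, an epithelial chain, was absent. The leukocyte chains ITGAL and ITGB2 were absent as well.

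Of the 23 Toll-like receptors and RNA sensors, 18 (78.3%, against 72.7% of all named genes) were present and 5 (21.7%) absent. TICAM1, an adaptor of Toll-like receptors, read 17072 and 14002 on one probe and 244 and 205.2 on the other, and STING1, the adaptor of DNA sensing, 9257 and 8141. Several members differed widely between the arrays. IFIH1 and RIGI, which sense double-stranded RNA, read 771 and 7488, and 591.4 and 4815. Their relative DHX58 read 1624 and 7170, and the DNA sensor AIM2 2430 and 7588. In each the sc siRNA array was the higher one, so for these genes the mean over both arrays is no level of either condition. Among ligands, IFNB1, the gene of interferon beta, read 2.63 and 164.6, the chemokine CXCL10 2.4 and 111, CXCL11 10.6 and 205.2, and the death ligand TNFSF10 181.5 and 1506. These were named for the width of their gap, after their values were seen, and its cause was not tested.

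Of 48 chemokines and cytokines, 25 (52.1%, against 72.7% of all named genes) were present, 17 (35.4%, against 23.7%) absent and none bright. CXCL1, a neutrophil chemokine, was the brightest, with 4197 and 3206, followed by IL15, with 1823 and 1940, and LIF, with 1603 and 1548. CCL2, the monocyte chemokine, was absent with 10.3 and 10.4, as were IL1A, IL10 and IFNG. IL6 and CXCL8, which serve inflammation, read 23.2 and 143.7, and 57.4 and 157.7.

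All 30 genes of HLA and peptide loading were present, against 72.7% of all named genes, and 14 (46.7%, against 13.9%) were bright. Class I molecules show peptides from inside the cell to CD8 T cells, and class II molecules, made mainly by professional antigen-presenting cells, show peptides to CD4 T cells. The 6 class I genes and B2M lay between the 95.9 and 99.5 percentiles, with a median of 98.9. HLA-B read 41468 and 55130, and B2M, the common light chain, 28993 and 38369. The transcripts of class I genes are alike in sequence, so their probes may share signal. The peptide transporter TAP1 read 8337 and 23330, the chaperone calreticulin (CALR) 176633 and 171821, and TAPBP, which links the transporter to class I molecules, 5664 and 6240.

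The 10 class II genes and CD74, the invariant chain gene, lay between the 39.4 and 83.3 percentiles, with a median of 72.0. These ranges are those of the brightest probes, and the other probe of the class I gene HLA-F read 216.5 and 646.9, at the 65.4 percentile. HLA-DPA1 read 2121 and 1968, HLA-DRB1 2078 and 1786, and HLA-DRA 400.3 and 461.3. CD74 was dim with 45.1 and 50.2. CIITA, the factor that switches class II genes on, read 183.1 and 253.3 on one probe. Its other probe read 7.75 and 10 and was absent, so the level of CIITA is uncertain. NLRC5, its counterpart for class I, read 63.1 and 107.1.

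Windows around the starts of HLA-B and HLA-DRB1 are shown for a bright class I gene and a class II gene of lower rank. Both are on the minus strand of RefSeq (GRCh38.p14), and CG is in capitals.
HLA-B, chr6:31357130-31357429: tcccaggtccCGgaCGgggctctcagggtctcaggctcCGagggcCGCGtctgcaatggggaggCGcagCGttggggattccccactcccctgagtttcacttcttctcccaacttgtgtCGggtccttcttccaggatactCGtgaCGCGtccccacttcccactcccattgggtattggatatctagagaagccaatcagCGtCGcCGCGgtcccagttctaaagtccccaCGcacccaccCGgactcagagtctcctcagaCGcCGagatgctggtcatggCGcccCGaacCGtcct
HLA-DRB1, chr6:32589799-32590098: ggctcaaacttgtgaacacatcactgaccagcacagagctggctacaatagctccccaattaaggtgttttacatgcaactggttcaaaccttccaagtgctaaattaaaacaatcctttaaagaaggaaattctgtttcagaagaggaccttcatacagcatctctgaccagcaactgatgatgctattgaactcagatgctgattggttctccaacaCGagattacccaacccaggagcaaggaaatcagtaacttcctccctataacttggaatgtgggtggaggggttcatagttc
The HLA-B window holds 22 CG dinucleotides, with a CpG ratio of 0.781, and that of HLA-DRB1 holds 1, with a ratio of 0.0714. Of these 11 class II and CD74 genes, 10 had a window, with a median ratio of 0.177, a range of 0.0627 to 0.55 and none over 0.6, against 48.8% of all windows. Of class I genes and B2M, 5 of 7 had a window, too few for a summary. The reference letters are those of RefSeq and not of the HLA alleles of this line.

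The checkpoint list holds surface and secreted molecules known to stimulate or restrain immune cells. Of its 38 measured genes, 31 (81.6%, against 72.7% of all named genes) were present, 7 (18.4%) absent and 6 (15.8%, against 13.9%) bright. CD24 read 29431 and 15293, the ectoenzyme NT5E 13238 and 11410, and NECTIN2 11206 and 10025. CD47, a signal against phagocytosis, read 9126 and 10705. MICA, a ligand of the NK receptor NKG2D, read 8916 and 10270, and CEACAM1 5142 and 5691. CD274, which encodes PD-L1, lay at the 84.5 percentile with 2599 and 2096, and its other probe read 718.4 and 583.8. PDCD1LG2, the gene of PD-L2, read 139.4 and 186. The co-stimulatory ligands TNFSF9, CD70 and TNFSF4 read 2764 and 3612, 42.7 and 41.3, and 36.5 and 40.5. Absent were CD80 and ICOSLG, which stimulate T cells, and CD200, FASLG, TNFSF14, TNFSF18 and VTCN1.

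Of 39 Wnt pathway genes, 25 (64.1%, against 72.7% of all named genes) were present and 13 absent. The Wnt inhibitor DKK1 read 16584 and 13102, beta-catenin (CTNNB1) 5654 and 4462, and the feedback target AXIN2 159.1 and 110.7. WNT5A was absent, with 10.3 and 4.64, as were the secreted inhibitors SFRP1, SFRP2 and SFRP4. Of 22 Notch genes, 13 (59.1%) were present and 9 (40.9%) absent. The receptor NOTCH2 led with 19059 and 15302, followed by RBPJ, the DNA-binding partner, with 15858 and 13314. The ligands DLL1, DLL3 and DLL4 and the targets HES1 and HEY2 were absent. Of 14 Hedgehog genes, 7 were present and none was bright. With a weaker mark, for a positive and significant signal, all 14 were present. The signal transducer SMO, with 5.47 and 3.96, was thus absent only by the stricter mark, and the effector GLI3 read 2140 and 1522.

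Of 41 measured TGF-beta and BMP pathway genes, 35 (85.4%, against 72.7% of all named genes) were present and 2 (4.88%, against 13.9%) bright. The bright ones were the receptor TGFBR2, with 15140 and 12084, and the target ID1, with 5225 and 6484. SMAD4, the common mediator, read 430 and 389.6. TGFBR1, the partner of TGFBR2, was dim with 105 and 58.5.

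Of 22 cell cycle inhibitors and related genes, 20 (90.9%, against 72.7% of all named genes) were present and 5 (22.7%, against 13.9%) bright. CDKN2A, which encodes a pair of unrelated tumour suppressor proteins, read 29201 and 24380 on one probe and 1464 and 1081 on the other, whose accessions name different transcripts, and SFN, an epithelial cell cycle inhibitor, 40404 and 31258. The inhibitor CDKN1A read 167.5 and 142.6, and the ubiquitin ligase gene MDM2 292 and 226.8. TP63, a factor of stratified epithelia, was absent with 2.24 and 2.07, as was TP73. RB1, the retinoblastoma gene, read 3147 and 2390.

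Of 34 matrix proteases and inhibitors, 27 (79.4%, against 72.7% of all named genes) were present and 7 (20.6%, against 13.9%) bright. The urokinase gene PLAU read 192412 and 121059, and its receptor PLAUR 3777 and 3675. The collagenase MMP1 read 32568 and 59419, and MMP14, a membrane-bound protease, 19912 and 15207. The inhibitor TIMP2 read 74237 and 60872, while TIMP3 was absent with 2.92 and 2.51. MMP7, a protease of epithelial tumours, was absent with 7 and 9.62.

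Of 28 measured genes of drug transport and metabolism, 23 (82.1%, against 72.7% of all named genes) were present and 7 (25%, against 13.9%) bright. TYMP, thymidine phosphorylase, read 113923 and 84158, and GSTP1, a glutathione transferase, 51498 and 51560. The aldo-keto reductase AKR1C1 read 46530 and 33554, a family whose near-identical members share probes. HMOX1, heme oxygenase, read 13139 and 44382. The efflux pumps ABCB1, on both probes, and ABCG2 were absent, with 4.15 and 2.48 on the brighter ABCB1 probe and 6.64 and 5.61 for ABCG2, while ABCC1, another pump, read 607.8 and 434.9.

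**Figure D5:**
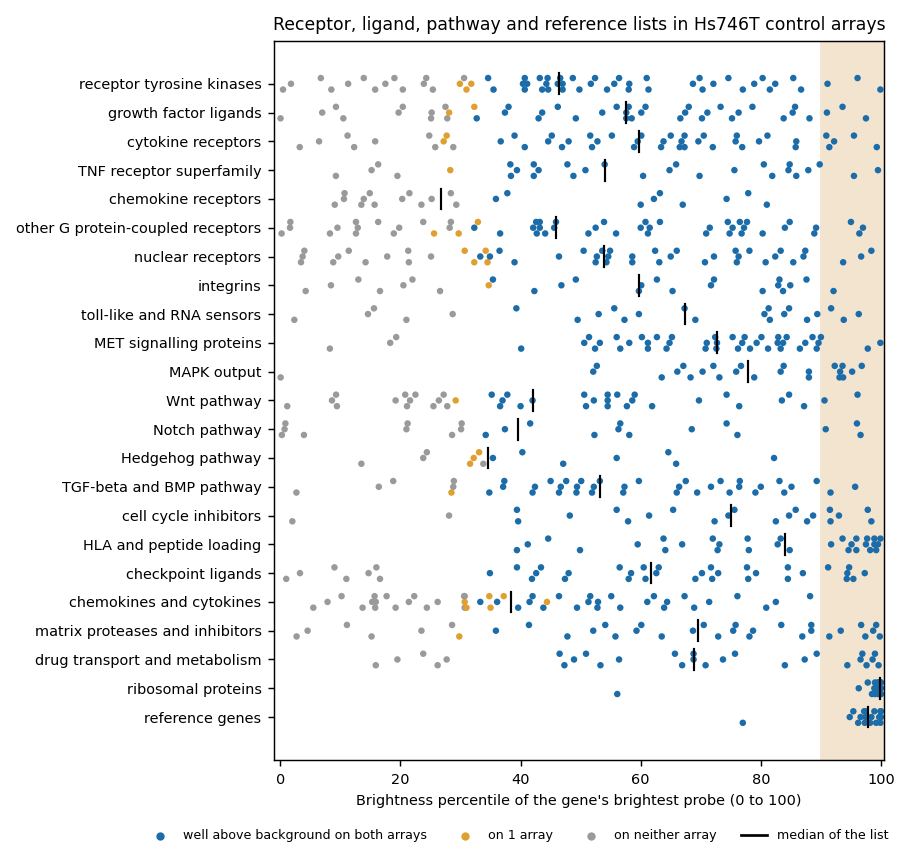
Brightness percentile of the brightest probe (horizontal axis) of each measured member of the receptor, ligand, pathway and reference lists, coloured by the background mark on the DMSO and sc siRNA arrays, with a black tick at the list's median and the highest 10% of probes shaded. Chemokine receptors have the lowest median, 26.8, and after ribosomal protein and reference genes the genes of HLA and peptide loading have the highest, 84.1.

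Over all 38 lists, 1016 of 1052 genes were measured, of which 714 were present, 259 absent, 43 seen on 1 array and 135 bright. Of the other 36, 17 had an outlier mark on every probe and 19 had no probe of their name.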

How the data were processed

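The authors hybridised cyanine 3-labelled cRNA, made from Trizol RNA, to single-colour human 44K arrays and deposited the scanner output of Agilent Feature Extraction (11.5.1.1 in the file headers). Its processed signal is a linear intensity after background subtraction and spatial detrending, deposited without normalization between arrays. Each array held 43118 non-control spots for 34127 probes. The authors' values gave a signal at the 75th percentile of 987.1 with DMSO and 820.2 with sc siRNA. Spots with an outlier mark for the feature or its background were removed (1.92% and 1.69%), no spot was saturated, and repeated spots entered as the mean of their log2 signals. With 1 array per condition there was no test, and the precision is limited by this number of arrays. Probes were named by RefSeq accession through a table of GRCh38.p14, used for names, gene order and promoter windows. The array design was annotated on another build. There were 38 lists, and the members and lists were chosen with earlier results of these data known. Named genes were list members, preferably the brightest and the defining absent ones, and the 20 brightest genes; others are said to be chosen after their values were seen. Alternatives changed the detection mark, outlier marks, arrays, the probe of a gene, scaling (50th percentile, quantile), background correction (normexp of limma 3.58.1 in R 4.3.3) and the source of values (series matrix). The code was run on simulated data whose background marks were set to the true class. This checks the code and says nothing on how right the calls are. Some genes of the lists are counted but not reported here by name. Other steps used Python 3.11.15, numpy 2.4.6 and pandas 2.3.3.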

Additional observations from a re-analysis of the deposited data

Results flagged for a closer look

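The treated arrays of the series, with the MET inhibitor PHA665752 and with MET siRNA, were not used above and hold signal on probes that were absent on both control arrays. Of 9453 such probes with a usable spot on both treated arrays, 37 (0.391%) were well above background on both, and 91.2% on neither. Counting those 37 on each, 648 (6.85%) were well above background on the inhibitor array and 218 (2.31%) on the MET siRNA array. Of 21089 probes present on the controls, 94.2% were well above background on both treated arrays. The difference was not tested.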

How the results depend on the processing

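With the weaker mark for a positive and significant signal in place of well above background, 77.1% of probes and 81.6% of named genes were present and 12.6% of genes were absent, and 17 stomach mucosa, 14 skeletal muscle, 5 nerve, 8 hepatocyte and all 14 Hedgehog genes were present, so several genes called absent here passed that mark. Read from the DMSO array alone, 68.1% of probes and 74.5% of genes were present, 25.5% of genes were absent and 5 nerve genes were present. From the sc siRNA array alone these shares were 68.5%, 74.6% and 25.4%. The probes of a gene fell into 1 class in 81.1%, 82.7% and 83.1% of genes under these 3 alternatives. Where every probe had to be present, 68.4% of genes and 7 cancer-testis genes were. With the highest 5% of probes as bright, 1284 genes were bright. Of the 2721 bright genes, 2626 remained bright under normexp and 2110 with the median probe of a gene, and for scaling at the 50th percentile, quantile normalization and the series matrix 2721, 2720 and 2721. Of 298 named genes checked for this, 12 changed their bright call with the median probe, 7 with the sc siRNA array alone and 4 under normexp. Outlier marks removed 26.0% of the highest 1% of probes, against 1.39% of all probes. No paired analysis was possible because there was 1 array per condition. Signal over background limits what absent means, since dim transcripts cannot be told from none.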

Other observations

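Beside FUT6 and GPR155, the genes HSCB, SLC16A12 and C5orf63 were bright by 1 probe each, with signals of 183104 and 181078, 174083 and 176890, and 181336 and 168735 with DMSO and sc siRNA. They were picked once their values were known. Of the 230 genes with a probe in the highest 1%, 96 had several usable probes and 6 of these had an absent one. Probes without a gene symbol were present less often (48.1% of 8243) than probes with one (72.1% of 25411), which was not tested.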
